A study of Mus musculus with 21 samples.

Results

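In the ganglionic eminences of mouse embryos, 2605 genomic regions carried a peak in both lists that are named for histone deacetylases, HDAC1 and HDAC2, and no peak in the lists named MBD3 and CHD4. They were selected on peak presence alone. The 6 deposited peak lists were merged wherever peaks overlapped by 1 bp or more on chromosomes 1 to 19 and X, which gave 38820 merged regions, and the 2605 make up 33.3% of the 7824 that hold both deacetylase-named lists. Whether a list named Rbbp4 or Rbbp7 also had a peak there was left free. They are called MBD3/CHD4-free regions here. That short name refers only to called peaks in the lists carrying those names, and does not state that the proteins were absent. The nearest comparison set is the 2234 regions with all 4 of these lists (four-list regions), 2772 regions had both deacetylase-named lists and MBD3 only, 213 had both and the CHD4-named list only, and 3049 had MBD3 without either deacetylase-named list.

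The study profiled 6 proteins of the nucleosome remodelling and deacetylase complex (NuRD) by chromatin immunoprecipitation and sequencing in CD1 embryos at E13.5 (embryonic day), with 1 library per protein and 3 inputs. It also measured accessible chromatin by ATAC-seq at E12.5 in Dlx1/2 knockout (KO) and wild-type (WT) CD1 embryos, with 3 embryos per genotype in each of the fractions FTneg (subventricular and mantle zones) and FTpos (ventricular zone). Dlx1 and Dlx2 encode homeodomain transcription factors of the GABAergic lineage. Each accessibility list holds regions higher in 1 genotype than in the other, with the embryos combined, so no list of either kind has a replicate. The chromatin came from whole ganglionic eminences, which mix dividing progenitors with postmitotic neurons. For all immunoprecipitation and input samples it was crosslinked with 5 mM disuccinimidyl glutarate (DSG) and 1% paraformaldehyde (PFA), then sonicated for 10 minutes.

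The names of the lists decide which regions these are. The list named HDAC1 is attached to the sample labelled CHD4, the list named HDAC2 to the sample labelled HDAC1, and the list named CHD4 to the sample labelled HDAC2. The MBD3, Rbbp4 and Rbbp7 lists carry the names of their samples. The files do not show which of the names is correct, so lists are called by the name they carry, and by the sample labels the same 2605 regions hold CHD4 and HDAC1 peaks without MBD3 or HDAC2 peaks. When the rule was applied to the sample labels instead, it chose 45 regions, and 0 of them were among the 2605. The names of both deacetylase-named lists also share a prefix that the MBD3 and CHD4-named lists do not have, and the proteins and that prefix cannot be told apart. Inputs cross this division, since the HDAC1-named list shares its input with MBD3 and the HDAC2-named list shares its input with the CHD4-named list.

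NuRD joins an ATP-dependent nucleosome remodeller such as CHD4 to a histone deacetylase module built on HDAC1 and HDAC2, with MBD3 or MBD2 bridging the modules and RBBP4 and RBBP7 contacting histones. The deacetylases and the RBBP proteins are not particular to NuRD. They also serve in the SIN3 complexes, and the deacetylases in CoREST and MiDAC, whereas MBD3 is a NuRD subunit. Deacetylases are known to occupy promoters of active as well as repressed genes.

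Promoter sequences are printed here for the 5 MBD3/CHD4-free regions that stood highest in both deacetylase-named lists and had a promoter in the reference table, because most regions of the set lay at such promoters and the sequences show which letters they hold. Bub1 encodes a kinase of the spindle checkpoint, Psme3 a proteasome activator, Thg1l a tRNA guanylyltransferase, Kif11 a mitotic kinesin and Trmt61a the catalytic subunit of a tRNA methyltransferase. The promoter of Pou2f1, a POU-domain transcription factor gene, is given for comparison from a four-list region. Each runs from 250 bases before to 50 bases after a RefSeq transcript start (GRCm38.p6), 5′ to 3′ on the gene's strand, and capitals mark matches, on either strand, to any of 12 short promoter motifs that are spelled out with the motif shares. Of the 20417 windows of the reference table, 9893 have their start at an annotated gene end, so a window can lie inside its gene.
Bub1 promoter (chr2:127831810-127832109, minus strand): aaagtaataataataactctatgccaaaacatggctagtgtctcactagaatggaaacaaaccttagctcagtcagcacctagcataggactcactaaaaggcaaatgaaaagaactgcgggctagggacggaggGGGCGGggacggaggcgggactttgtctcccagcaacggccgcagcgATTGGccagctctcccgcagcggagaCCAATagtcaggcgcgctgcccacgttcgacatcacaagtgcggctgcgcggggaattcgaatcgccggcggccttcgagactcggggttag
Psme3 promoter (chr11:101315963-101316262, plus strand): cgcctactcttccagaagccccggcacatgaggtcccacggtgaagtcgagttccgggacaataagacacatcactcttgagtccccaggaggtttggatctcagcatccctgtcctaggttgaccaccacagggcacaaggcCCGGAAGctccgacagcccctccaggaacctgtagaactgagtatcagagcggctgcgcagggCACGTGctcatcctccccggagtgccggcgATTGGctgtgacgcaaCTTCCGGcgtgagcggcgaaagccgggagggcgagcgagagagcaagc
Thg1l promoter (chr11:45955139-45955438, minus strand): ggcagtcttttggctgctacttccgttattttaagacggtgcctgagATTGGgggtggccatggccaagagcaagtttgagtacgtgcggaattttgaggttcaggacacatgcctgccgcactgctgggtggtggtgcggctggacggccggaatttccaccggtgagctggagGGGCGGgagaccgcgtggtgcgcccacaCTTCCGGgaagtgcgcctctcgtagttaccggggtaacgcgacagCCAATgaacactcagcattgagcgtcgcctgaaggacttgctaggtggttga
Kif11 promoter (chr19:37376132-37376431, plus strand): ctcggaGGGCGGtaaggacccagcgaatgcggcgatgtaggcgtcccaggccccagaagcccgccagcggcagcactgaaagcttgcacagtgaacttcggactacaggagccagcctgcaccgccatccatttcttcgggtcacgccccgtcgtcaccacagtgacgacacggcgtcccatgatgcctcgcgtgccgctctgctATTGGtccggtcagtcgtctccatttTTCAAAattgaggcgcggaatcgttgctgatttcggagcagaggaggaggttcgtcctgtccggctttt
Trmt61a promoter (chr12:111677855-111678154, plus strand): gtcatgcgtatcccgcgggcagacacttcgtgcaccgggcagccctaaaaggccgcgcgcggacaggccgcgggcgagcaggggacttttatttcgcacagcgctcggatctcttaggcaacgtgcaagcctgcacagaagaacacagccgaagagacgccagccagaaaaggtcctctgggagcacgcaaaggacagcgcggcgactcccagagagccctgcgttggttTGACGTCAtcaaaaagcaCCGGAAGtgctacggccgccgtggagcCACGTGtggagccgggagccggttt
Pou2f1 promoter (chr1:166002585-166002884, minus strand): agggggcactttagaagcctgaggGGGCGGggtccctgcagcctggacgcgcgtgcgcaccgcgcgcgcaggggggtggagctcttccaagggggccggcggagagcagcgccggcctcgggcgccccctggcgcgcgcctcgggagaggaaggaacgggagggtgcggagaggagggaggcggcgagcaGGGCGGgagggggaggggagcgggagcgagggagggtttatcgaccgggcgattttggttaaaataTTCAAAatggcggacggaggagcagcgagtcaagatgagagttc
The Bub1, Psme3, Thg1l and Kif11 windows all hold a CCAAT box, the Psme3, Thg1l and Trmt61a windows an ETS motif, and the Trmt61a window a cyclic AMP response element. The Pou2f1 window holds 2 GC boxes and neither a CCAAT box nor an ETS motif. Its GC content was 69.7%, against 56.0% to 63.0% in the windows from MBD3/CHD4-free regions.

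The strength of regions was ranked by fold enrichment at the summit, the authors' own value for each peak, taken as a percentile within each list, with the lower percentile of the deacetylase-named lists deciding. The Bub1 region (chr2:127829992-127832249) ranked first, with 23.2-fold enrichment in the HDAC1-named list, 13.2-fold in the HDAC2-named list and 7.46-fold in the Rbbp4 list. Both deacetylase-named values lie above the 99th percentile of their lists, and the nearest MBD3 peak was 293262 bp away.
The Psme3 region (chr11:101315543-101316753) had 26.3-fold and 11.99-fold enrichment in the HDAC1- and HDAC2-named lists, and the Thg1l region (chr11:45954765-45955769) had 27.7-fold and 11.5-fold. The Kif11 region (chr19:37375403-37377729) had 22.3-fold and 11.0-fold. These 3 also had Rbbp4 peaks, of 5.48-fold at Psme3, 7.55-fold at Thg1l and 6.07-fold at Kif11, and none had an Rbbp7 peak. The Trmt61a region (chr12:111677730-111678770), at 22.9-fold and 10.9-fold, had neither Rbbp peak, and its nearest MBD3 peak lay 5109 bp away.

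Over the 20 strongest regions, fold enrichment ran between 14.7 and 27.7 in the HDAC1-named list, with a median of 19.0, and between 9.52 and 17.6 in the HDAC2-named list, with a median of 10.0. Of all 2605 regions, 74.2% lay at gene ends, 76.7% had an Rbbp4 peak and 15.1% an Rbbp7 peak. Over all merged regions these shares were 33.7%, 72.5% and 36.5%. Of the 20 strongest, 19 lay at gene ends, 16 had an Rbbp4 peak and 1 had an Rbbp7 peak. The genes with mitotic roles were Bub1, Kif11, Cenpp (a kinetochore protein, sharing its region with the nucleolar protein gene Nol8), Cdca5 (sororin, which protects sister chromatid cohesion, sharing its region with Zfpl1), Nek2 (a centrosomal kinase), Cdca2 (a phosphatase-targeting protein of mitotic chromatin, sharing its region with Kctd9), Clasp1 (a microtubule plus-end protein), Mki67 (the proliferation antigen Ki-67) and Ect2 (an exchange factor for cytokinesis). Mcm3 encodes a subunit of the replicative helicase. Med18 is a subunit of Mediator, Taf1a a subunit of the selectivity factor of RNA polymerase I, Hnrnpu a nuclear RNA-binding protein, Irf3 an antiviral transcription factor whose region also touched Bcl2l12, and Jmy an actin nucleation factor. Synj1, a phosphatase of synaptic vesicle recycling, shared its region with Cfap298, a cilium assembly gene. The exception in position was a region 49452 bp from Nid2, a basement membrane gene, which had the highest HDAC2-named value of the 2605 at 17.6-fold.
At Mki67 (chr7:135713659-135716859) the HDAC1-named fold was 14.7, the HDAC2-named fold 9.58 and the Rbbp4 fold 8.68. At Mcm3 (chr1:20819169-20820632) the same values were 19.0, 9.62 and 5.27. At the Cdca2 and Kctd9 region (chr14:67713946-67715710) an MBD3 peak lay 421 bp away, so absence from a region does not mean absence from its surroundings.

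How far the absent lists were varied widely. The nearest MBD3 or CHD4-named peak lay at a median of 46210 bp from an MBD3/CHD4-free region, with quartiles of 14666 and 101415 bp. In 222 of the 2605 (8.52%, Wilson 95% interval 7.51 to 9.66) one lay within 1 kb. All intervals here cover counting error over regions, which are not replicates, and with 1 list per protein no test over samples was possible. At the edge of the rule, the weakest regions inside, near Klhl2 and Cklf, had an HDAC2-named peak with a −log10 q of 2.69. A region just outside, near Stag2, held a CHD4-named peak that was barely called, with a −log10 q of 2.46.

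The fold enrichments come from the same lists whose peaks chose the regions, and are given as a description. The MBD3/CHD4-free regions had a median fold of 7.62 in the HDAC1-named list, at the 76.3rd percentile of that list, against 6.71 and the 66.4th percentile in four-list regions. In the HDAC2-named list the order was the other way, with a median of 5.06 at the 48.7th percentile in MBD3/CHD4-free regions, against 5.69 at the 67.8th percentile in four-list regions. Thus the set sat high in the HDAC1-named list and near the middle of the HDAC2-named list. Their median width was 1119 bp, against 1514.5 bp in four-list regions. Among the 7824 regions with both deacetylase-named lists, the share free of MBD3 and CHD4-named peaks was 47.2% in the top quintile by HDAC1-named fold and 27.7% in the bottom quintile. By HDAC2-named fold the share was 21.0% in the top quintile and 43.1% in the bottom quintile.

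**Figure D1:**
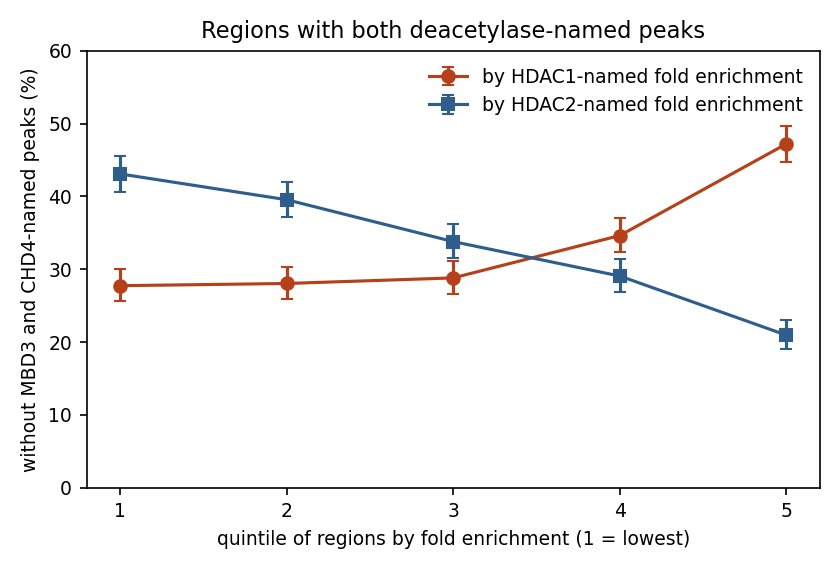
Share (%) of the 7824 regions with both deacetylase-named peaks that had neither an MBD3 nor a CHD4-named peak, on the vertical axis, by quintile of fold enrichment in the HDAC1-named list (circles) or the HDAC2-named list (squares), lowest quintile at left. Bars are Wilson 95% intervals over regions; the share is 47.2% in the top quintile by the HDAC1-named list and 21.0% in the top quintile by the HDAC2-named list.

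The deacetylase-named summits lay close together. Their distance within a region had a median of 117 bp in MBD3/CHD4-free regions, against 150 bp in four-list regions, and 71.3% of MBD3/CHD4-free regions (69.5 to 73.0) had them within 250 bp, against 63.9% of four-list regions (61.9 to 65.8).

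The Rbbp4 list, which the rule left free, had a peak in most MBD3/CHD4-free regions, and the Rbbp7 list in few. Rbbp4 peaks were present in 1998 of 2605 (76.7%, 75.04 to 78.3), against 2223 of 2234 four-list regions (99.5%), a difference of -22.8 percentage points (Newcombe 95% interval -24.5 to -21.2). Rbbp7 peaks were present in 393 of 2605 (15.1%, 13.8 to 16.5), against 1527 of 2234 (68.4%, 66.4 to 70.2), a difference of -53.3 points (-55.6 to -50.8). Over all 38820 merged regions the shares were 72.5% for Rbbp4 and 36.5% for Rbbp7. The Rbbp4 share of the set was thus close to this background, and the Rbbp7 share was below it. The background includes regions called in an Rbbp list alone.
Sorted by combination, 1607 regions (61.7%) had Rbbp4 without Rbbp7, 605 (23.2%) had neither, 391 (15.0%) had both and 2 had Rbbp7 alone. Neither list was present in 14.4% of all merged regions and in 11 of the four-list regions (0.492%), and both were present in 23.4% of all merged regions. Regions with MBD3 and both deacetylase-named lists but no CHD4-named peak stood between, with Rbbp4 in 98.1% and Rbbp7 in 42.6%. The share without either Rbbp peak was higher in MBD3/CHD4-free regions than in those by 21.5 points (19.8 to 23.2).
The Rbbp peaks that were present were also weaker in rank. The median Rbbp4 fold was 4.74 in the 1998 MBD3/CHD4-free regions with a peak, at the 46.4th percentile of its list, against 7.03 and the 85.9th percentile in four-list regions. The median Rbbp7 fold was 5.55 at the 31.5th percentile, against 6.77 at the 60.5th percentile. The Rbbp4 list is the longest, with 29762 peaks, and the CHD4-named list the shortest, with 5517. With each list held to its 5517 peaks of highest −log10 q, 1229 regions met the rule, and Rbbp4 was present in 18.8% and Rbbp7 in 3.50% of them. The difference from four-list regions in Rbbp4 share was then -65.3 points. By sample labels it was -8.40 points, and the Rbbp7 share was 26.7%. With peaks of −log10 q of at least 10, the Rbbp7 share was 7.85%.

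**Figure D2:**
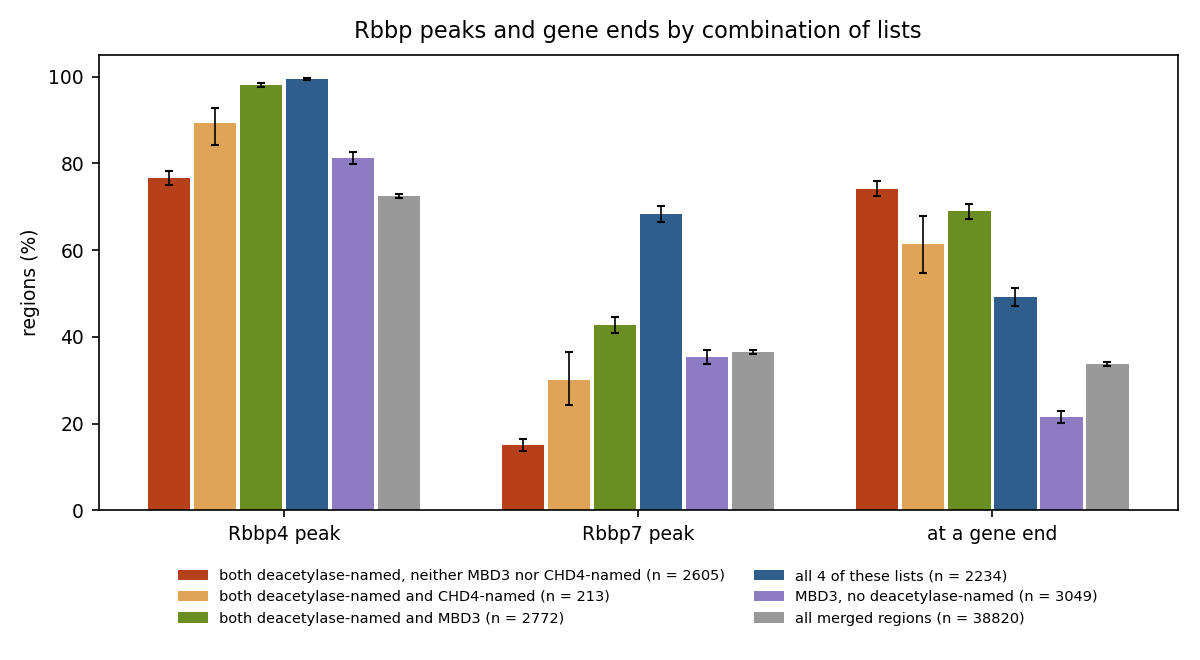
Share of regions (%) with an Rbbp4 peak, with an Rbbp7 peak and at a gene end, for 5 combinations of lists and for all merged regions, with Wilson 95% intervals over regions as bars. MBD3/CHD4-free regions, leftmost in each group, have Rbbp7 peaks in 15.1% and lie at gene ends in 74.2%, against 68.4% and 49.3% for the regions with all 4 lists.

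Regions with different Rbbp combinations differed in where they lay. The strongest regions with both Rbbp lists were at Cdca2 and Kctd9, Zfp367 (a zinc finger gene), Epha3 (an ephrin receptor), Zfp46 and Nuf2 (a kinetochore protein), with Rbbp7 folds between 4.11 at Epha3 and 6.70 at Cdca2. The Zfp367 region had a CHD4-named peak 115 bp away. The strongest without either Rbbp list were at Trmt61a, Taf1a, Ect2, Heatr1 (a ribosome biogenesis gene) and the region 49452 bp from Nid2, with HDAC1-named folds between 14.7 and 22.9. Regions with both Rbbp lists lay at gene ends in 51.7% (46.7 to 56.6), those with Rbbp4 alone in 79.2% (77.1 to 81.1) and those with neither in 75.7% (72.1 to 79.0). The median HDAC1-named fold was 6.55 in regions with both, 7.63 with Rbbp4 alone and 8.26 with neither.

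MBD3/CHD4-free regions lay mostly at gene ends and promoters. Gene ends were taken as 1 kb around the start or end coordinate of coding genes that have a curated RefSeq transcript. At gene ends lay 1933 of 2605 (74.2%, 72.5 to 75.8), against 1101 of 2234 four-list regions (49.3%, 47.2 to 51.4), a difference of 24.9 points (22.2 to 27.6). When lists were taken by their sample labels, the 45 regions lay at gene ends in 24.4% and the difference reversed to -24.8 points. The share over all merged regions was 33.7%. Regions with both deacetylase-named lists and MBD3 were at gene ends in 68.9%, 5.26 points lower than MBD3/CHD4-free regions (2.85 to 7.66), and MBD3 regions without deacetylase-named peaks in 21.5%. Promoter windows of the reference table were overlapped by 63.0% of MBD3/CHD4-free regions, 40.2% of four-list regions and 24.2% of all merged regions. Inside gene bodies away from the ends lay 17.7% of the set, against a background of 34.3%, and outside genes 8.06%, against 32.1%. Introns and exons could not be told apart, because the table used gives gene ends only. Chromosome X held 19 regions of the set (0.729%), against 1.85% of all merged regions, and 7 four-list regions (0.313%).
The difference in Rbbp7 was present both at gene ends and away from them. At gene ends Rbbp7 peaks were in 10.5% of MBD3/CHD4-free regions, against 56.7% of four-list regions, and away from gene ends in 28.3%, against 79.7%. The differences were -46.2 points (-49.3 to -42.9) and -51.4 points (-55.4 to -47.1). For Rbbp4 they were -22.9 points at gene ends and -21.8 points away from them.

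At promoters the deacetylase-named summits lay downstream of the transcript start. In 1421 MBD3/CHD4-free regions assigned to a start, the HDAC1-named summit lay at a median of 188 bp downstream, with quartiles of 62 and 285 bp, and downstream in 79.9% (77.7 to 81.9). The HDAC2-named summit lay at a median of 146 bp and downstream in 72.1% (69.7 to 74.3). The Rbbp4 summit, in the 1110 of these with a peak, lay at a median of 17 bp and downstream in 53.5% (50.6 to 56.4). So the summits of the deacetylase-named lists sat within the first part of the transcribed region, and those of Rbbp4 around the start itself. In four-list regions the HDAC1-named summit had a similar median of 207 bp with wider quartiles of 15 and 434 bp, and the HDAC2-named summit a median of 79 bp, downstream in 58.2% (54.8 to 61.5).

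**Figure D3:**
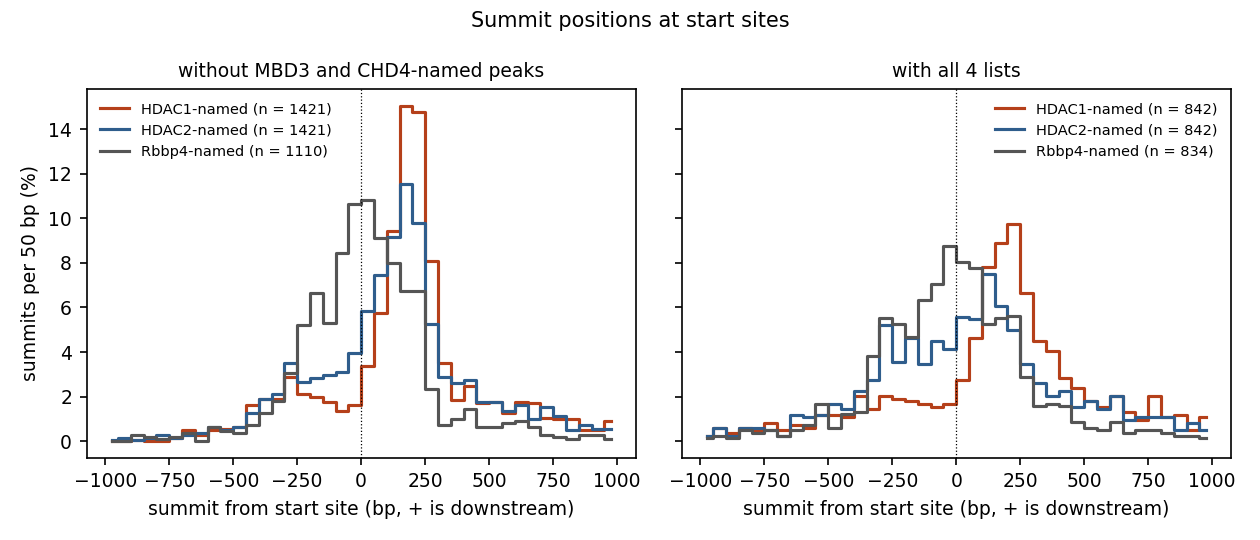
Position of peak summits from the transcript start (bp, positive downstream) in 50 bp bins, as a share of the summits of each list (%), in MBD3/CHD4-free regions at left and in regions with all 4 lists at right. In MBD3/CHD4-free regions the HDAC1-named curve peaks downstream of the start, with a median of 188 bp, and the Rbbp4 curve lies around the start, with a median of 17 bp.

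Start sites of genes on both strands were more often covered by 1 region in this set. Of the 1642 MBD3/CHD4-free regions that overlapped promoter windows, 221 (13.46%, 11.9 to 15.2) overlapped windows of both strands, against 57 of 899 four-list regions (6.34%, 4.93 to 8.13). The share was 8.13% in regions with both deacetylase-named lists and MBD3, and 2.44% in MBD3 regions without deacetylase-named peaks. No share over all merged regions was taken. Genes with an MBD3/CHD4-free region at an end had a median length of 23912.5 bp, against 35893.5 bp for genes with a four-list region there. The median was 24669 bp for genes with any merged region at an end, close to that of the MBD3/CHD4-free set.

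The letters of the promoters differed in the same sets. For 12 motifs, exact letters were searched on both strands. Letters of the GC box and E2F motifs can overlap. The E2F motif and the cell cycle homology region (CHR) were added after values had been seen.
The ETS motif (letters CCGGAAG), which ETS-family factors read, was present in 25.4% of the 2104 promoter windows that overlapped an MBD3/CHD4-free region (23.6 to 27.3), against 14.0% of the 1117 that overlapped a four-list region (12.1 to 16.1), a difference of 11.4 points (8.60 to 14.1). It was present in 18.5% of the 10998 windows that overlapped any merged region, and in 11.9% of all 20417 windows. The GC box (letters GGGCGG), read by SP and KLF factors, was less frequent, in 67.2% against 76.3%, a difference of -9.12 points (-12.3 to -5.87). It was present in 70.8% of windows of any merged region and in 47.7% of all windows. The CCAAT box, spelled by its name and read by NF-Y, was present in 40.5% against 35.2%, a difference of 5.36 points (1.83 to 8.82). Windows of any merged region held it in 38.0% and all windows in 38.4%.
Smaller shares were held by the CHR (letters TTTGAA, 12.8% against 7.97%, and 15.3% of all windows), the E-box (letters CACGTG, 12.7% against 8.68%, and 8.05%), the cyclic AMP response element (letters TGACGTCA, 4.61% against 2.51%, and 2.31%) and BANP (letters TCTCGCGAG, 2.52% against 0.985%, and 1.00%). In windows of any merged region these shares were 9.92% (CHR), 10.4% (E-box), 3.35% (cyclic AMP response element) and 1.56% (BANP). The interval of the difference lay above 0 for each of these 4 motifs. It included 0 for NRF1 (letters GCGCATGCG, 4.71% against 4.03%, and 2.43% of all windows), the TATA box (letters TATAAA, 5.51% against 4.92%, and 12.4%) and the homeodomain motif (letters TAATTA, 1.43% against 1.52%, and 4.44%). For YY1 (letters AAGATGGC, 5.47% against 3.85%, and 3.11%) and E2F (letters GGCGGGAA, 5.75% against 4.12%, and 2.95%) its lower bound was close to 0, at 0.0429 and 0.0166 points. Windows of any merged region held YY1 in 4.51% and E2F in 4.34%. With 1 window per region the ETS difference was 11.1 points and the GC box difference -10.2 points, whereas the YY1 interval, -0.433 to 2.98 points, included 0.
Base composition also differed between the sets. Median GC content was 61.7% in windows of MBD3/CHD4-free regions, 67.0% in those of four-list regions and 57.0% over all windows, and the median observed-to-expected CpG ratio was 0.845, 0.827 and 0.589 in the same sets. Its part in the motif shares was not tested. Windows of the 605 regions without either Rbbp peak had the highest median CpG ratio within the set, at 0.884, and their ETS share was 25.4%.

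**Figure D4:**
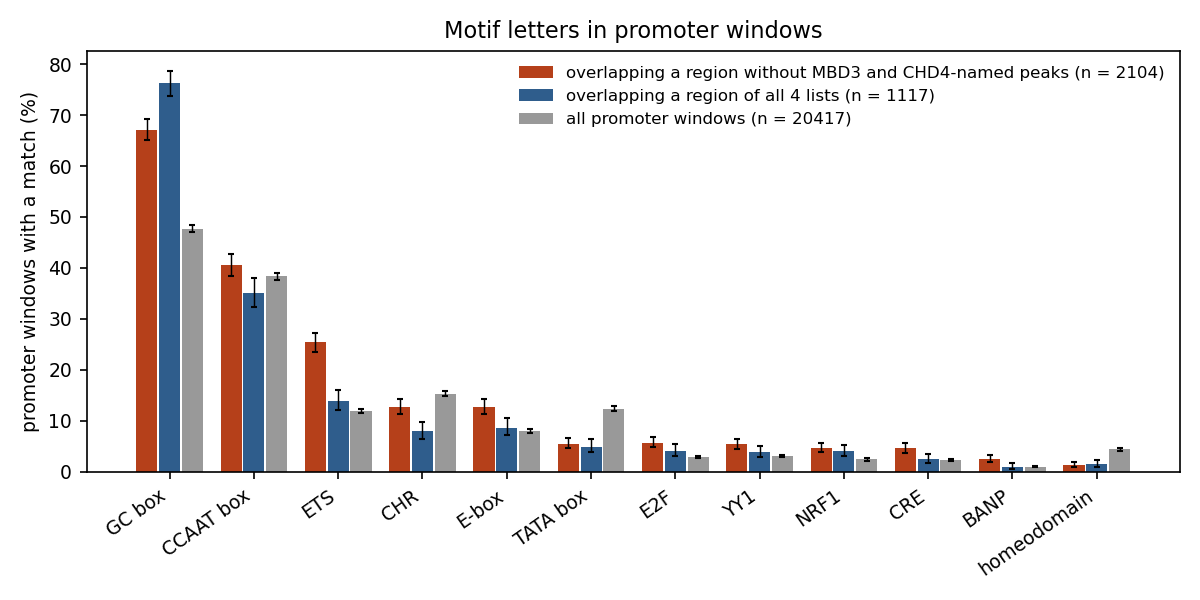
Share of promoter windows (%) with a match to each of 12 motifs, for windows overlapping MBD3/CHD4-free regions (left bar), windows overlapping regions with all 4 lists (middle bar) and all windows of the reference table (right bar), with Wilson 95% intervals over windows. The ETS motif stands at 25.4%, 14.0% and 11.9%, and the GC box at 67.2%, 76.3% and 47.7%.

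Of 20949 curated coding genes, 2302 (11.0%) had an MBD3/CHD4-free region at an end and 1214 (5.80%) a four-list region. Genes of 15 lists were counted against these shares. Because either end of a gene counts, the region was also set against the gene's own promoter windows. Of the 86 listed genes with an MBD3/CHD4-free region, 70 have a window in the table, and at 60 of these the region overlapped it. The 10 where it did not were Chd4, Mta2, Phf21a, Mier1, Six3, Snrpa1, Srsf6, Mrpl34, Mrpl36 and Ndufb6. Among the 22 cell cycle genes, 10 had an MBD3/CHD4-free region and 2 (Ccne1 and Rb1) a four-list region. They comprised the helicase genes Mcm2, Mcm3, Mcm4, Mcm5 and Mcm7, the cyclins Ccna2 and Ccnb1, the kinases Cdk1 and Cdk2, and Mki67. HDAC1-named folds at these 10 ran between 9.21 at Cdk2 and 21.5 at Mcm7, with a median of 15.3, and HDAC2-named folds between 4.48 and 9.62. At the cyclin B1 gene Ccnb1 (chr13:100784765-100786917) they were 14.7 and 4.48, and at Cdk1 (chr10:69351528-69353149) 17.2 and 7.20. Rbbp4 had a peak at 8 of the 10 and Rbbp7 at Mcm7.
Spliceosome genes showed the widest gap, with 16 of 38 genes at an MBD3/CHD4-free region and 0 of 38 at a four-list region. They included the serine/arginine-rich splicing factors Srsf1, Srsf3, Srsf6, Srsf7, Srsf10 and Srsf11, the small nuclear ribonucleoprotein genes Snrpa1, Snrpb, Snrpb2 and Snrpd2, the splicing factor 3 genes Sf3a2 and Sf3b5, the processing factors Prpf3, Prpf19 and Prpf31, and U2af2, a subunit of the factor that binds the polypyrimidine tract. At Srsf3 (chr17:29032684-29034919) the HDAC1-named fold was 18.2 and the HDAC2-named fold 4.60, and 9 of these 16 had neither Rbbp peak. Proteasome genes numbered 10 of 31 against 1 of 31, among them Psmc2 at 13.9- and 7.001-fold, and cytosolic translation factor genes 7 of 34 against 1 of 34, among them Eef1a1 at 11.5- and 5.601-fold. The other proteasome genes were Psma4, Psma5, Psmb1, Psmc3, Psmc4, Psmc6, Psmd2, Psmd3 and Psmd14, and the other translation genes Eef1g, Eif3d, Eif3l, Eif3m, Eif4a2 and Eif5a.
Mitochondrial ribosomal protein genes numbered 11 of 54 against 2 of 54, with HDAC1-named folds between 6.78 at Mrpl13 and 11.3 at Mrps27. The other 9 were Mrpl2, Mrpl11, Mrpl12, Mrpl18, Mrpl34, Mrpl36, Mrps9, Mrps24 and Mrps30. Oxidative phosphorylation genes numbered 10 of 47 against 6 of 47 (Ndufa5, Ndufa9, Ndufb6, Ndufs3, Ndufs6, Ndufv1, Sdha, Uqcrfs1, Cox4i1 and Atp5c1), and Ndufs6 shares its region with Mrpl36. Because nearly all genes of these lists had some merged region at an end, shares were also taken among such genes. They were 47.6% for cell cycle, 44.4% for spliceosome and 37.04% for proteasome genes, against 19.2% of the 12008 genes with any region. For translation factor genes the share was 21.9%, for mitochondrial ribosomal protein genes 22.4% and for oxidative phosphorylation genes 23.3%, all near that background.

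**Figure D5:**
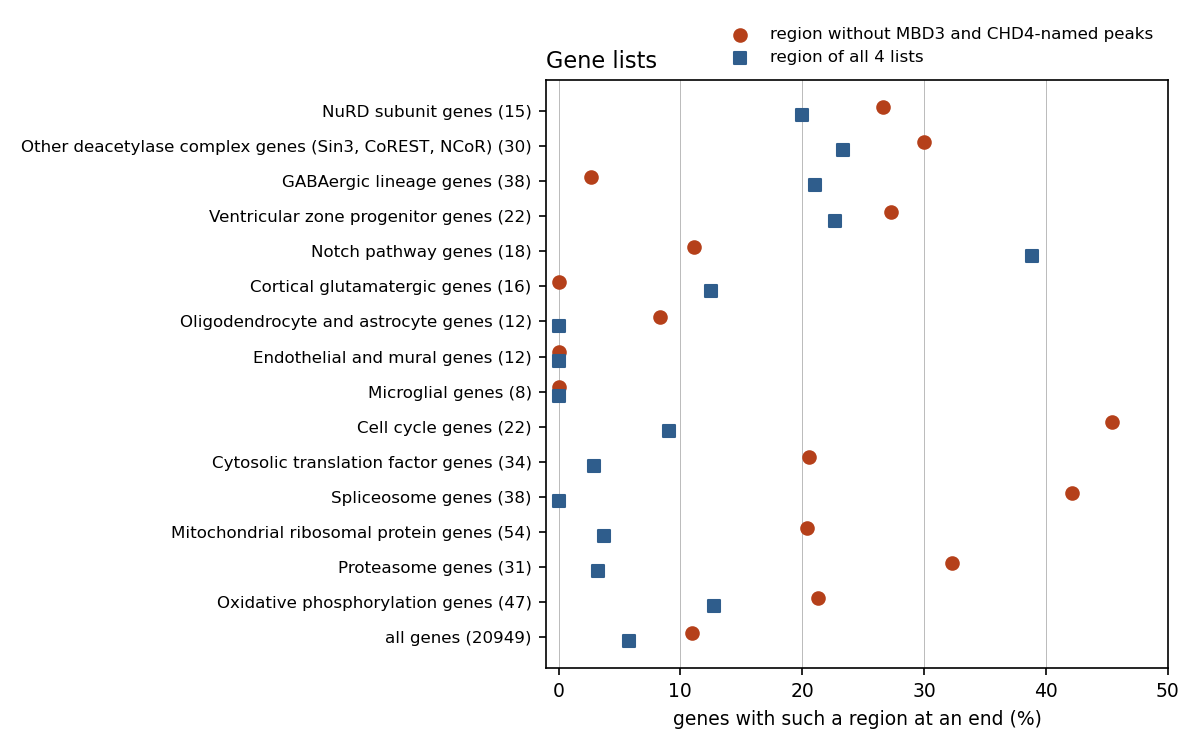
Share of the genes of each list (%), with the number of genes in parentheses, that had an MBD3/CHD4-free region (circles) or a region with all 4 lists (squares) at an end, with all 20949 curated coding genes in the bottom row. Circles lie right of squares for cell cycle, spliceosome and proteasome genes and left of them for GABAergic lineage and Notch pathway genes.

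Neuronal lineage and Notch pathway genes more often had a four-list region than an MBD3/CHD4-free region. Of 38 GABAergic lineage genes, 1 had an MBD3/CHD4-free region, against 8 with a four-list region (Dlx1, Meis1, Foxp2, Sox11, Nr2f1, Tshz1, Pbx3 and Bcl11b). The gene was Six3, a homeodomain gene of the ventral forebrain, with HDAC1-, HDAC2-named and Rbbp4 folds of 4.34, 5.32 and 7.29. A region counts at a gene if any part of it reaches an end, so its peaks can lie further away. Of the 8, Nr2f1 had no HDAC2-named, MBD3 or CHD4-named peak within 1 kb of an end. The Notch pathway had 2 of 18, Notch2 and Hes1, against 7 of 18, Notch1, Dll1, Jag1, Hes1, Hes5, Hes6 and Lfng. As shares these Notch counts were 11.1% and 38.9%, against 11.0% and 5.80% of all curated coding genes. The Notch gap thus lay mainly on the four-list side. Of the 16 Notch genes with any merged region, 2 had an MBD3/CHD4-free region, against 19.2% of all such genes. Cortical glutamatergic genes had 0 of 16 against 2 of 16. Some region of the 6 lists lay at 36 of the 38 GABAergic genes, 3 of 12 endothelial and mural genes and 1 of 8 microglial genes, and an MBD3/CHD4-free region at 0 genes of the last 2 lists.
Ventricular zone progenitor genes were found in both sets, with 6 of 22 at an MBD3/CHD4-free region and 5 of 22 at a four-list region. All 22 had some merged region, so the first share, 27.3%, compares with 19.2% of all such genes. Hes1, a Notch effector gene, was in both. Nes and Vim encode intermediate filaments of progenitors, Gli3 a Hedgehog pathway factor and Olig2 a lineage factor of ventral progenitors. The regions at Hes1, Nes, Vim, Gli3 and Olig2 had an Rbbp4 peak, and those at Hes1, Nes, Vim and Olig2 also had an Rbbp7 peak, whereas the Gli3 region had none. At Olig2 (chr16:91221923-91230243) the HDAC1-named, HDAC2-named, Rbbp4 and Rbbp7 folds were 9.91, 5.71, 6.98 and 5.80, and at Vim (chr2:13573148-13576858) 8.58, 5.88, 5.24 and 9.24. Slc1a3, a glial glutamate transporter gene, was the 1 of 12 oligodendrocyte and astrocyte genes with such a region, at 9.53- and 5.06-fold and with neither Rbbp peak. Among the 6 genes of that list with any merged region the share was 16.7%, near the 19.2% background.
Deacetylase complex genes were themselves among the regions. Of 15 NuRD subunit genes, 4 had an MBD3/CHD4-free region (Chd4, Hdac1, Mta2 and Cdk2ap1), against 3 with a four-list region (Hdac2, Mbd2 and Mbd3). All 15 had some merged region, so the first share, 26.7%, compares with 19.2% of all such genes, and the 3 of 15 with 10.1%. The Chd4 region (chr6:125131297-125132516), with an HDAC1-named fold of 14.7, an HDAC2-named fold of 6.21 and neither Rbbp peak, lay at the end shared with the neighbouring gene Nop2 and not at a Chd4 promoter window. The Mta2 region likewise lay at an end shared with Tut1. The region at Cdk2ap1 overlapped its own promoter window, and Hdac1 has no window in the table. A gene with an MBD3/CHD4-free region can hold other peaks at its ends. Chd4 also had MBD3, CHD4-named and Rbbp7 peaks within 1 kb of an end, and Mta2 an MBD3 peak. Neither gene had an HDAC2-named peak within that distance, since its region only reaches the end in part. At Cdk2ap1 a region with both deacetylase-named lists and MBD3 also reached an end. Hdac1 had neither an MBD3 nor a CHD4-named peak there. A list of 30 genes of other deacetylase complexes held mainly SIN3, CoREST and NCoR genes. It also held Mier1, Mier2, Mier3, Mideas and Tdg, which are not subunits of these complexes. Of the 30, 9 had an MBD3/CHD4-free region (Sin3a, Sap30, Sap130, Arid4a, Rcor1, Hmg20b, Phf21a, Gps2 and Mier1), against 7 with a four-list region, Tdg among them. Among the 29 with any merged region the shares were 31.0% and 24.1%, against 19.2% and 10.1% of all such genes. The highest was Sap30, a SIN3 subunit gene (chr8:57486029-57488826), with 16.6- and 7.95-fold enrichment.

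MBD3/CHD4-free regions fell less often than four-list regions where accessibility was higher in Dlx1/2 KO than in WT FTneg cells. Regions more accessible in KO FTneg cells overlapped 18 of 2605 (0.691%, 0.438 to 1.09), against 110 of 2234 four-list regions (4.92%, 4.10 to 5.90), a difference of -4.23 points (-5.24 to -3.32). The share of the set was 0.381% with peaks required to overlap directly by 0.5 of the shorter peak, 0.407% with lists of equal length and 4.44% of the 45 regions chosen by sample labels. The share over all merged regions was 1.33%. The 18 were 2.49% of the 724 KO-higher FTneg regions. The gap to four-list regions was found away from gene ends, at 2.08% against 9.36% (a difference of -7.27 points, -9.29 to -5.19). At gene ends the shares were 0.207% and 0.363%, and the interval of their difference, -0.737 to 0.236 points, included 0. Regions with MBD3 but no CHD4-named peak had 0.866%, a difference of -0.175 points whose interval, -0.665 to 0.314, also included 0.
Each of the other lists overlapped 2 regions of the set or fewer, but these lists are short. They hold 53 (WT-higher FTneg), 33 (WT-higher FTpos) and 12 regions (KO-higher FTpos), which limits how many overlaps could be counted. Taken as shares of the lists, 1.89% of WT-higher FTneg and 6.06% of WT-higher FTpos regions overlapped the set. WT-higher FTneg regions overlapped 1 (0.0384%, with 0.0927% over all merged regions), in the body of Jazf1, with an area of 584 in the authors' deposited list. WT-higher FTpos regions overlapped 2 (0.0768%, with 0.0696% over all merged regions), at Cwc22 and 14735 bp from Pecam1. KO-higher FTpos regions overlapped 0 of 2605, which allows a share of up to 0.115% from counting error (3 counts), and 0.00258% of all merged regions.
Of the 20 regions with any overlap, 16 lay away from gene ends, 10 had an Rbbp7 peak and 20 had an Rbbp4 peak. Of the whole set of 2605, 672 lay away from gene ends and 393 had an Rbbp7 peak. Among the 18 KO-higher regions, the largest area in the authors' deposited FTneg list was 2655 in the body of Ap3b1, an adaptor complex gene, which ranked 5 of the 724 in that list. An area of 1651 was 331635 bp from Cypt12, its nearest gene by distance only, and an area of 1600 was in the body of Nrp1, a receptor of semaphorins. Other KO-higher regions lay in or near Ank2, Ptpn13, Lrig1, Enc1, Traf3ip2, Svil, Ola1, Ppp2r2b, Skor2, Nhsl1 and Ebf3, and at the ends of Ddx54 with Rita1, of the histone genes H2bc9 with H3c7, of Cwc22 and of Myt1. Among these, Ebf3 and Myt1 encode transcription factors of neuronal differentiation, and their areas in the authors' deposited list were 505 and 624. The embryos were 1 day younger than those used for the peak lists, so the assays did not share a stage.

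Few genes gathered several regions of the set. Of 2461 genes that were nearest to an MBD3/CHD4-free region, 2336 had 1 and 111 had 2. Pou3f3, a POU homeodomain gene of neural progenitors, had the most with 6, and Usp25, a deubiquitinase gene, had 5. Of the 6 near Pou3f3, 1 lay at its end (chr1:42697311-42705313, 8003 bp wide, HDAC1-named fold 10.0, HDAC2-named fold 4.76). A further 2 lay 6966 and 12570 bp away, with HDAC1-named folds of 8.23 and 11.3. The remaining 3 lay between 804661 and 885043 bp away and were assigned by distance alone. All 5 near Usp25 lay more than 200 kb from it, between 214019 and 580351 bp, and 3 of them had Rbbp7 peaks.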

How the data were processed

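The text rests on 6 ChIP-seq peak lists (1 sample each) and 4 accessibility lists (3 KO and 3 WT embryos per fraction, combined in each list) of 21 samples. The submitters' processing notes name MACS2 2.2.7.1 and Genrich, which call peaks, besides SAMtools 1.10, BWA and deepTools, and give mm10 as the genome build. The sources used here do not give their settings. Fold enrichment at the summit (a ratio), −log10 p and −log10 q of each ChIP peak are the authors' deposited values. The score of each accessibility region is an area under a significance curve in the authors' deposited lists, which hold areas of at least 500. Read counts were not used, so the depth of the lists is unknown, and no value was compared in size between lists other than as a percentile within its list.

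Peaks were merged on chromosomes 1 to 19 and X, and overlap meant 1 bp or more. Positions are 1-based. Genes and promoters came from RefSeq tables of GRCm38.p6, the assembly of mm10, without strand or exons for genes (20949 of 21627 coding genes had a curated transcript, 16782 of these with 20417 promoter windows). All 395 genes of the 15 lists matched. Shares carry Wilson 95% intervals and differences Newcombe 95% intervals, with no p-values, since each target has 1 list. Merging, overlap, distance and interval steps were checked on simulated lists. Regions were named as the 20 strongest, the 5 strongest with both and with neither Rbbp list, all that overlap an accessibility region, the nearest genes with the most regions and all listed genes with a region at an end. Results at some genes that this rule names are not reported here. Promoters were printed in that order, as far as the table held them, up to 5. The members and gene lists were chosen with earlier results of these data known. Alternatives changed the peak threshold, list lengths, merging, overlap, names, windows, fold and width. Software was Python 3.11.15, pandas 2.3.3, NumPy 2.4.6 and Matplotlib 3.10.9.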

Additional observations from a re-analysis of the deposited data

Results flagged for a closer look

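The region at Cwc22, a splicing factor gene (chr2:77945203-77946519), overlapped accessibility regions of opposite direction in different fractions. In the authors' deposited lists its KO-higher area in FTneg cells was 1402.72, and its WT-higher area in FTpos cells was 1663.73. The difference between fractions was not tested. The region had a −log10 q of 143 in the HDAC1-named list at a fold of 7.72, a −log10 q of 24.6 in the HDAC2-named list at a fold of 3.64, and the lowest Rbbp4 fold of the 1998 regions with such a peak, 2.199. The Bub1 region, for comparison, had a lower −log10 q of 116 in the HDAC1-named list at a higher fold of 23.2. Read depth at Cwc22 was not examined, and its part in these values and in the opposite directions was not tested.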

How the results depend on the processing

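Of 72 alternative values, 33 stayed within the main interval or within 1.5 times the main count, 38 moved outside it and 1 reversed. The cause of these moves was not tested. With peaks of −log10 q of at least 10, 955 regions met the rule, with Rbbp4 in 68.7%, Rbbp7 in 7.85% and gene ends in 76.9%, and differences from four-list regions of -30.7 (Rbbp4), -59.5 (Rbbp7) and 37.8 points (gene ends). With lists of equal length there were 1229 regions, with Rbbp4 in 18.8%, Rbbp7 in 3.50%, gene ends in 83.8% and KO-higher FTneg overlap in 0.407%, and differences of -65.3 (Rbbp4) and -48.6 points (Rbbp7). With direct overlap by 0.5 of the shorter peak there were 3940 regions, with Rbbp4 in 68.7%, Rbbp7 in 11.6%, gene ends in 65.3% and KO-higher overlap in 0.381%, and differences of -30.7 (Rbbp4) and 21.7 points (gene ends). With lists taken by their sample labels there were 45 regions, with Rbbp4 in 91.1%, Rbbp7 in 26.7%, gene ends in 24.4% and KO-higher overlap in 4.44%. The differences were then -8.40 (Rbbp4) and -41.7 points (Rbbp7), and the gene-end difference reversed to -24.8 points. Merged without the Rbbp lists, Rbbp4 was present in 78.3%. With summits within 250 bp the gene-end difference was 28.5 points. Gene-end windows of 500 bp and 5 kb gave shares of 70.6% and 82.6%. Chosen after seeing the data, regions above the median HDAC2-named fold gave differences of -20.5 (Rbbp4) and -56.3 points (Rbbp7), and those below it -48.8 points (Rbbp7). Regions narrower than the median gave -26.9 (Rbbp4) and 34.8 points (gene ends), and wider ones -15.5 points (Rbbp4). In each of these the Rbbp4 and Rbbp7 differences stayed below 0. No paired analysis was possible because each accessibility list combines its embryos and each ChIP target has 1 list. The unknown depth limits what an absent peak shows.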
